A study of Oryza sativa with 4 samples.

Results

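The difference between M202(Sub1) and M202 shoots after 6 days under water was described gene by gene. M202 is a japonica rice (Oryza sativa) cultivar that survives submergence poorly, and M202(Sub1) is a near-isogenic line of it that carries the introgressed Sub1 submergence tolerance locus. The plants were 18-day-old soil-grown seedlings, put wholly under water in a greenhouse, and RNA came from their shoots. M202(Sub1) at 6 days and M202 at 6 days had 1 Affymetrix rice array each, as did M202(Sub1) and M202 at 1 day. All 4 groups were submerged, so the study has no plants in air, and M202(Sub1) is 1 introgression line.

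The members are the genes measured on the 2 arrays of the 6-day groups. A gene was represented by its probe set with the highest mean signal and was kept where its highest value reached the median of all values, a log2 signal of 5.51, called the floor here. Of 17905 genes with a probe set, 15426 passed. Differences are log2 values, M202(Sub1) minus M202, so that 1 stands for a 2-fold higher signal in M202(Sub1), and a gene is called 2-fold higher or lower from that size on. With 1 array a side there is no spread between replicates and no test, and "higher" and "lower" describe these 2 arrays.

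Plants under water run short of oxygen, light and carbon dioxide, and the gas ethylene collects in their tissues. Sub1 encodes ethylene response factors, and the tolerant form of the locus is known for holding back shoot elongation and sparing sugar and chlorophyll until the water recedes. Without oxygen, cells turn pyruvate into ethanol to keep glycolysis running. SUB1A, SUB1B and SUB1C were not analysed here.

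The array medians lay at 5.51 for M202(Sub1) and 5.48 for M202 at 6 days, and the median difference over genes was 0.00. Of 9 green-shoot marker genes, 8 were above the floor, and the differences of all 9 lay between -0.31 and 0.16, with a log2 of the summed signal of 16.34 in M202(Sub1) and 16.31 in M202. Of 6 root marker genes 3 were above the floor and none was 2-fold apart, with a log2 of the summed signal of 8.86 in M202(Sub1) and 9.09 in M202. Of 13 genes of shoot meristem and young leaf base, 8 lay under the floor on both 6-day arrays, and the log2 of the summed signal was 10.55 in M202(Sub1) and 10.63 in M202. The actin control sets had 3' minus 5' log2 signals of 2.52 and 3.43 in M202(Sub1) and of 2.36 and 3.20 in M202. The GAPDH pair with the higher signal had 0.81 in M202(Sub1) and 0.79 in M202. The part of RNA quality in the results was not tested.

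A 2-fold higher signal in M202(Sub1) was found for 594 genes, 3.85% of those measured, and a 2-fold lower signal for 336 genes, 2.18%, together 6.03%. The 2 directions were thus not balanced, although 50.3% of all genes lay above 0 and 49.6% below. At 4-fold the counts were 84 higher and 48 lower, and at 8-fold 20 higher and 9 lower. The middle of the distribution was narrow, with the 5th percentile at -0.69 and the 95th at 0.88. Genes at low signal were more often 2-fold apart in both directions. Of the 2027 genes whose higher 6-day value lay between 5.5 and 7, 6.07% were 2-fold higher and 2.52% 2-fold lower. Of the 2638 genes between 11 and 15, 2.46% were 2-fold higher and 1.25% 2-fold lower. On the M202 array, 135 of the 594 higher genes lay under the floor, and on the M202(Sub1) array 56 of the 336 lower genes did, so the size of those differences is uncertain. Among the genes with more than 1 probe set above the floor, the sign was shared by every set in 57 of 58 higher and 32 of 36 lower genes. Nearest to the 2-fold line, WRKY24 (1.00) and PSS1 (1.00) lay inside and KIN1 (0.998) and BZIP02 (0.995) outside on the higher side, and CKX4 (-1.01) and KSL7 (-1.03) lay inside and BGLU34 (-0.999) and BLE3 (-0.996) outside on the lower side.

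**Figure D1:**
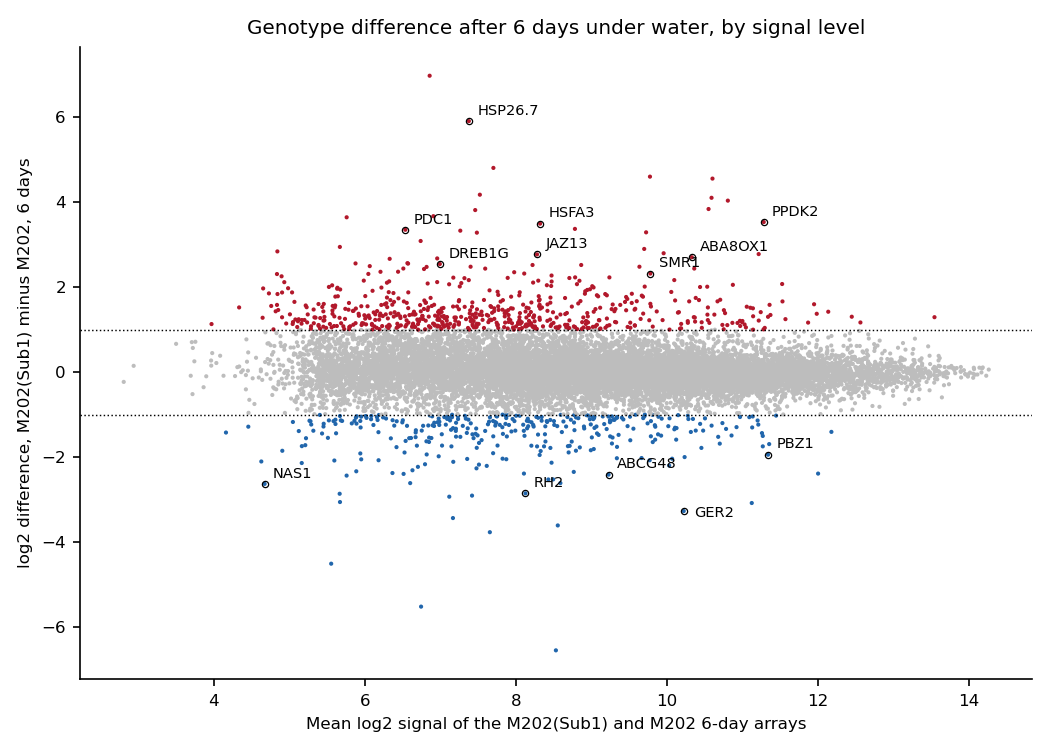
Log2 difference between the M202(Sub1) and M202 6-day arrays (vertical axis) against the mean log2 signal of the 2 arrays (horizontal axis), 1 point for each of 15426 genes. Red points are the 594 genes 2-fold higher in M202(Sub1), blue points the 336 2-fold lower, the dotted lines mark log2 values of 1 and -1, and circled points are genes named in the text.

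Many genes that copy DNA had a higher signal in M202(Sub1). Of 28 measured DNA replication genes, 24 lay above 0 and 10 were 2-fold higher, against 3.85% of all genes, with none 2-fold lower and a list median of 0.69. The 6 genes for the MCM2 to MCM7 subunits, which form the ring-shaped helicase that opens DNA at replication origins, were all among the 10. MCM3 stood at 8.63 in M202(Sub1) and 6.97 in M202 at 6 days, a difference of 1.66, and at 8.73 in M202(Sub1) and 8.67 in M202 at 1 day. The M202 6-day array was thus the low one of the 4. MCM5 stood at 8.44 in M202(Sub1) and 6.89 in M202 at 6 days, against 8.33 in M202(Sub1) and 8.19 in M202 at 1 day. The others differed by 1.54 (MCM4), 1.52 (MCM2), 1.46 (MCM7) and 1.11 (MCM6) at 6 days, and their 1-day differences lay between -0.08 and 0.21. MCM9, a relative outside that ring, differed by 0.01. Of the origin recognition complex, which marks the places where replication starts, ORC3 differed by 1.88, ORC1 by 1.44 and ORC4 by 1.38. ORC5 (0.59) and ORC2 (-0.13) were less than 2-fold apart. ORC3 and ORC1 lay under the floor on the M202 6-day array, at 3.96 and 5.12, and ORC4 was also higher at 1 day, by 1.11. RPA2A, a subunit of the protein that coats single-stranded DNA, was at 8.78 in M202(Sub1) and 7.62 in M202.

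Of 42 cell cycle and histone genes, 32 lay above 0, against 50.3% of all genes, with a median of 0.30. Of the 42, 11 were 2-fold higher, against 3.85% of all genes, and none 2-fold lower. The D-type cyclins, which carry growth signals into the division cycle, included the list's largest difference. CYCD2-2 stood at 7.85 in M202(Sub1) and 5.28 in M202 at 6 days, the M202 value under the floor, and at 7.04 in M202(Sub1) and 6.73 in M202 at 1 day. CYCD4-1 was at 9.98 in M202(Sub1) and 8.17 in M202, and CYCD4-2 was at 9.20 in M202(Sub1) and 7.41 in M202. Both were higher on the M202(Sub1) 6-day array than on either 1-day array. CYCD6-1 differed by 1.33.

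Some mitotic genes had another pattern of levels. The B-type cyclin CYCB2-2 stood at 7.56 in M202(Sub1) and 6.10 in M202 at 6 days, against 9.44 in M202(Sub1) and 9.48 in M202 at 1 day. Both 6-day arrays were thus lower than both 1-day arrays, and M202 was the lowest. For the A-type cyclin CYCA2-1 (1.40), CYCA3-2 (1.15) and the mitotic kinase gene CDKB2-1 (1.23), both 6-day arrays also lay below both 1-day arrays. The M202 6-day array was again the lowest. Some genes that hold the cycle back were 2-fold higher as well. SMR1, named for the SIAMESE-related inhibitors of cyclin-dependent kinases, was at 10.94 in M202(Sub1) and 8.62 in M202, a difference of 2.32, and it was also higher at 1 day, by 1.82. The inhibitor gene KRP5 differed by 1.39, and RBR1, the retinoblastoma-related repressor of entry into DNA synthesis, by 1.75. RBR1 was read from a probe set with a suffix for possible cross-hybridisation, a kind called shared here. The other measured members of these inhibitor and repressor families, KRP6 (0.58), KRP4 (0.08), KRP1 (0.02) and RBR2 (-0.07), were less than 2-fold apart. In these whole-shoot samples, fewer cells of a type and less RNA per cell cannot be told apart. Of 13 meristem markers, 6 lay above 0, against 50.3% of all genes, and the median was -0.05. Of the 13, 2 were 2-fold higher, against 3.85% of all genes, and none 2-fold lower. The first, OSH1, a homeobox gene, was at 5.97 in M202(Sub1) and 4.10 in M202 at 6 days. At 1 day the order was reversed, at 3.76 in M202(Sub1) and 6.11 in M202. Without shared probe sets the 6-day difference of OSH1 was 2.92. The second, its relative HOS9, was at 5.35 in M202(Sub1) and 3.54 in M202 at 6 days, under the floor. The markers OSH43 (-0.24) and hb3 (-0.14) lay below 0. LOG, a cytokinin-activating enzyme of the meristem, was at 9.50 in M202(Sub1) and 9.84 in M202. The part of meristem tissue in the result was not tested.

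**Figure D2:**
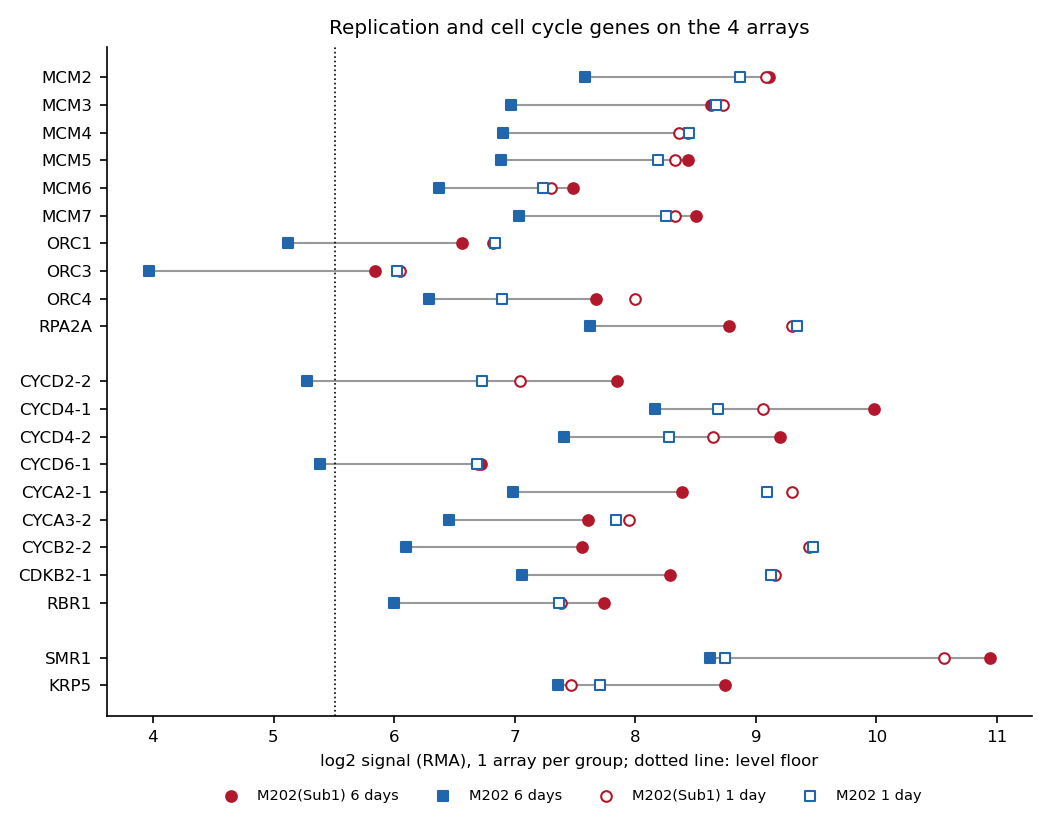
Log2 signal (horizontal axis) of 21 DNA replication and cell cycle genes (rows) on the M202(Sub1) 6-day (filled circle), M202 6-day (filled square), M202(Sub1) 1-day (open circle) and M202 1-day (open square) arrays, with a line joining the 6-day values and the floor dotted. For MCM2 to MCM7 the M202 6-day square lies to the left and the other 3 symbols lie together, as for MCM3 at 6.97 against 8.63 to 8.73, while for CYCB2-2 both 6-day symbols lie left of the 1-day ones.

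Ribosomal protein genes differed little but mostly one way, with 22 of 25 above 0, against 50.3% of all genes. Their median was 0.25, and none was 2-fold apart. Among growth genes outside that machinery, GRF6 and GRF1, growth-regulating transcription factors of leaf cell division, were at 9.90 and 8.42 in M202(Sub1) and at 7.67 and 6.21 in M202. MAKIBA3, a partner of these factors, was at 8.02 in M202(Sub1) and 5.90 in M202, and KIN10C, a kinesin motor, was higher by 2.43. For these 4 genes the M202 6-day array was the lowest of the 4, and their 1-day differences lay between -0.63 and 0.90.

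Of 22 expansin and xyloglucan enzyme genes, 2 were 2-fold higher and 3 2-fold lower, against 3.85% and 2.18% of all genes. The median was -0.12. The higher ones were 2 of 8 measured alpha-expansins, of which 4 lay above 0: EXPA5 was at 9.87 in M202(Sub1) and 8.36 in M202, and EXPA7 was at 10.06 in M202(Sub1) and 8.57 in M202, although the mean of the probe sets of EXPA7 gave a difference of only 0.45. The lower ones were 3 of 9 measured beta-expansins, EXPB11 (-1.26), EXPB2 (-1.10) and EXPB7 (-1.04), which stood at between 8.75 and 9.96 in M202(Sub1) and between 9.79 and 11.22 in M202. The beta-expansin EXPB17 (0.95) and the alpha-expansin EXP2 (-0.58) lay on the other side of 0 from these. Among 47 cellulose and lignin genes, the laccase LAC3, which polymerises lignin, was lower (-1.73), and the cellulose synthase-like genes CSLF8 (1.53) and CSLA1 (1.19) were higher.

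Cold and drought regulators of the DREB1 class were higher in M202(Sub1). These transcription factors switch on genes of cold and dehydration tolerance. Of the 8 measured DREB and ERF genes, 4 were 2-fold higher, against 3.85% of all genes, and none was 2-fold lower. DREB1G stood at 8.26 in M202(Sub1) and 5.72 in M202 at 6 days, and under the floor at 5.03 in M202(Sub1) and 5.24 in M202 at 1 day. DREB1E was at 9.91 in M202(Sub1) and 7.98 in M202, and DREB1A at 9.27 in M202(Sub1) and 7.91 in M202. DREB1B stood at 11.27 in M202(Sub1) and 9.58 in M202 at 6 days, and in the other order at 1 day, at 6.35 in M202(Sub1) and 7.54 in M202. For all 4, both 6-day arrays were higher than both 1-day arrays. DREB1A and DREB1B are next to each other among the measured genes of chromosome 9. The fifth DREB1 gene, DREB1C, was at 5.36 in M202(Sub1) and 5.49 in M202, and DREB2A (-0.26), DREB2B (-0.01) and EREBP-1 (-0.10) were less than 2-fold apart. MYB2, a factor of salt, cold and drought tolerance, was at 9.87 in M202(Sub1) and 7.97 in M202, and differed by 0.01 at 1 day.

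Heat shock genes were mixed, with a few members far apart. Of 38 measured genes, 24 lay above 0, against 50.3% of all genes, 8 were 2-fold higher, against 3.85% of all genes, and none was 2-fold lower. The median was 0.08. HSP26.7, a small chaperone of the chloroplast, stood at 10.33 in M202(Sub1) and 4.42 in M202, a difference of 5.91, and at 7.48 in M202(Sub1) and 4.77 in M202 at 1 day. It was under the floor on both M202 arrays. HSFA3, a heat shock factor, was at 10.07 in M202(Sub1) and 6.57 in M202 at 6 days, and 2.06 apart at 1 day. The other 6 genes were less far apart, between 1.04 and 1.49: the small heat shock protein genes HSP26.2, HSP17.9A, HSP18.1 and HSP17.4 and the factors HSFB4B and HSFB2A. HSP17.9A, HSP17.4 and HSP18.1 lie within 5 neighbouring measured genes of chromosome 3, where the other 2 differed by -0.11 and 0.09. HSP18.1, HSP26.2 and HSFB4B were read from shared probe sets, and the mean of its probe sets put HSFB4B at 0.87, under 2-fold.

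The hormone lists had medians between -0.13 and 0.15, and some of them held members that were 2-fold apart. Of 31 jasmonate genes, 3 were 2-fold higher and 2 lower (median -0.13), against 3.85% and 2.18% of all genes. JAZ13, a repressor of jasmonate responses, stood at 9.67 in M202(Sub1) and 6.89 in M202 at 6 days, and under the floor at 1 day, at 4.53 in M202(Sub1) and 4.79 in M202. BHLH148, a partner of JAZ proteins in drought tolerance, was at 10.58 in M202(Sub1) and 8.98 in M202. JAZ10 was higher by 1.25, or by 0.56 without shared probe sets. Of the genes of jasmonate synthesis, AOS3, an allene oxide synthase, was at 5.73 in M202(Sub1) and 7.35 in M202, and OPR5 of the oxophytodienoate reductase family was lower (-1.24), although the mean of its probe sets gave -0.52.

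Among 26 abscisic acid genes, 4 were 2-fold higher and 1 lower (median 0.07), against 3.85% and 2.18% of all genes. ABA8OX1, which breaks abscisic acid down, was at 11.68 in M202(Sub1) and 8.98 in M202 at 6 days, and at 9.83 in M202(Sub1) and 8.58 in M202 at 1 day. The other 3 are protein phosphatases 2C of the kind that blocks the abscisic acid signal. PP2C30 was at 9.48 in M202(Sub1) and 6.96 in M202, and both genotypes were near the floor at 1 day, with a difference of -0.28. PP2C51 differed by 1.28 with the M202 value under the floor, and ABIL1 by 1.05. RAB21, a dehydrin that abscisic acid induces, was lower, at 7.30 in M202(Sub1) and 8.68 in M202.

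Of 54 auxin genes 4 were 2-fold higher and 1 was 2-fold lower, against 3.85% and 2.18% of all genes. PIN5, an auxin transporter, was at 7.16 in M202(Sub1) and 4.60 in M202, where it was under the floor, and the related PIN5A was at 6.89 in M202(Sub1) and 8.62 in M202. The response repressors IAA20 (2.26) and IAA14 (1.07) and the response factor OsARF16 (1.29) were higher, with IAA20 under the floor on both M202 arrays. For cytokinin, CKX5, an oxidase that breaks it down, was at 8.15 in M202(Sub1) and 6.08 in M202, while CKX4 (-1.01) and the activating enzyme gene LOGL3 (-1.34) were lower. The lists of ethylene (10 genes), gibberellin (11) and brassinosteroid (8) had no member 2-fold apart. The ethylene genes lay between -0.36 and 0.585, the highest being the synthesis gene ACO1. The receptors ETR2 (-0.21, but -0.66 in its other probe set) and ERS1 (-0.12) and the synthesis gene ACS2 (0.04) lay between. ACS2 differed by -0.86 at 1 day.

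Some genes of low-oxygen metabolism were higher, with 2 of 4 fermentation genes 2-fold higher, against 3.85% of all genes. PDC1, a pyruvate decarboxylase of the ethanol pathway, stood at 8.21 in M202(Sub1) and 4.86 in M202 at 6 days, and at 11.55 in M202(Sub1) and 8.92 in M202 at 1 day. Adh2, an alcohol dehydrogenase, was at 7.60 in M202(Sub1) and 6.08 in M202, and PDC2 was at 10.75 in M202(Sub1) and 9.78 in M202. In these 3 genes M202(Sub1) was the higher genotype at both times, and each genotype had the lower value at 6 days. PDC3 lay near the floor and differed by -0.02. NSHB2, a hemoglobin that binds oxygen and nitric oxide, was at 6.90 in M202(Sub1) and 5.11 in M202, while NSHB1 differed by 0.61, or 0.16 without shared probe sets.

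Of 16 glycolysis genes, 2 were 2-fold higher, against 3.85% of all genes, and none was 2-fold lower. Their median was 0.20. GAPC3, a cytosolic glyceraldehyde-phosphate dehydrogenase, was at 12.85 in M202(Sub1) and 11.43 in M202, although the mean of its probe sets gave 0.95, and the aldolase FBA3 was at 12.67 in M202(Sub1) and 11.30 in M202. PPDK2, which makes phosphoenolpyruvate from pyruvate, was at 13.05 in M202(Sub1) and 9.51 in M202 at 6 days, and at 13.62 in M202(Sub1) and 10.65 in M202 at 1 day. Its value comes from 1 shared probe set. Its paralog PPDK1 differed by -0.23. The other members of the carbon salvage list, which include ICL and MS of the glyoxylate cycle, lay between -0.55 and -0.19. TPP1, a trehalose phosphatase, was at 11.58 in M202(Sub1) and 9.14 in M202, and PIP2-5, a water channel, at 8.06 in M202(Sub1) and 5.58 in M202. None of 14 sucrose and starch breakdown genes was 2-fold apart, and 11 lay below 0, against 49.6% of all genes.

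**Figure D3:**
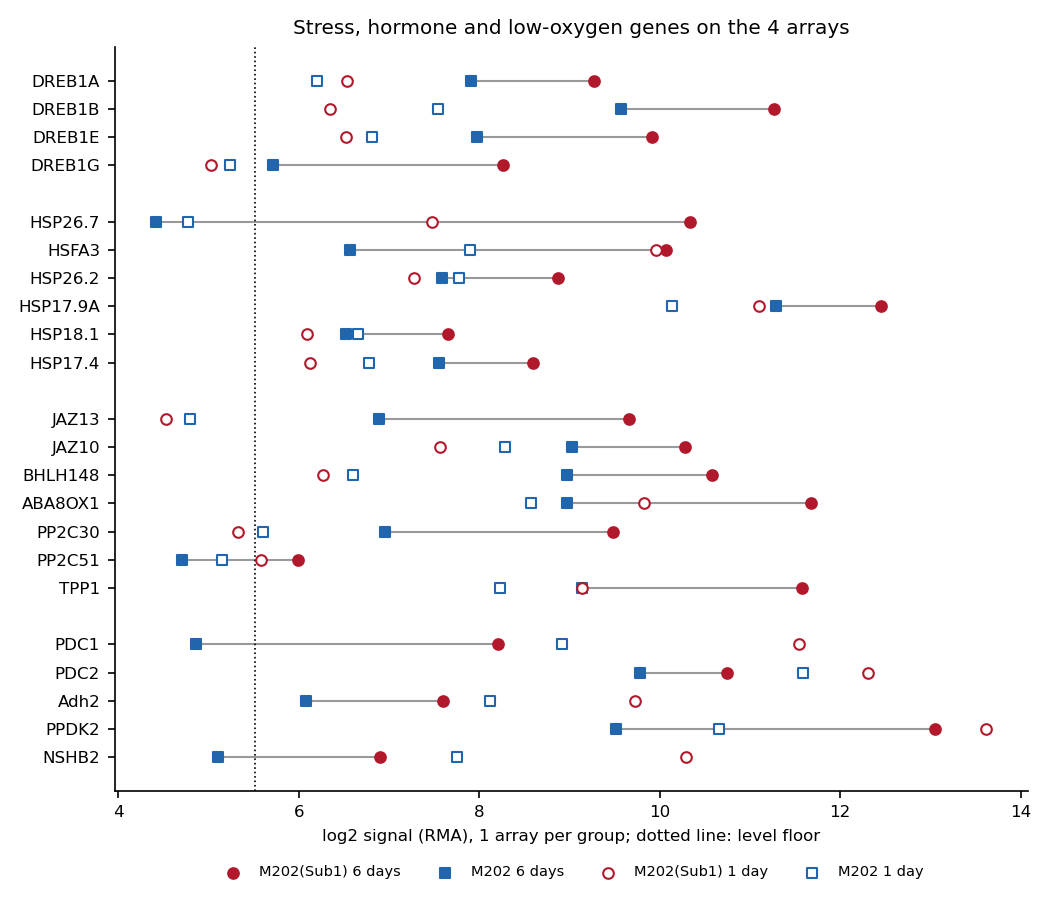
Log2 signal (horizontal axis) of 22 stress, hormone and low-oxygen genes (rows) on the 4 arrays, with filled symbols at 6 days, open symbols at 1 day, circles for M202(Sub1), squares for M202, and the floor dotted. DREB1 genes and JAZ13 have both 6-day symbols to the right of the 1-day ones with M202(Sub1) farthest right, while PDC1, PDC2, Adh2 and NSHB2 have their 6-day symbols to the left and M202(Sub1) right of M202 at each time.

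Genes of diterpenoid phytoalexins, antimicrobial compounds of rice, were lower in M202(Sub1). All 12 measured members, of 16 with a probe set, lay below 0, as did 49.6% of all genes. Of the 12, 8 were 2-fold lower, against 2.18% of all genes, and the median was -1.29. Of these 8, KSL7, MAS, KSL4 and CYP76M7 reached the floor only on the M202 6-day array, where they were highest, so the floor favoured their counting. Without a floor the median was -0.99. The syntheses start with copalyl diphosphate synthases: CPS2 stood at 6.11 in M202(Sub1) and 8.23 in M202, and CPS4 at 7.22 in M202(Sub1) and 8.17 in M202. Kaurene synthase-like enzymes act next, of which the genes KSL4 (-1.74) and KSL7 (-1.03) lay under the floor in M202(Sub1), at 4.29 and 5.15. Later steps are carried out by P450 enzymes. CYP76M7 was at 5.18 in M202(Sub1) and 7.55 in M202, CYP71Z7 at 6.51 in M202(Sub1) and 8.72 in M202, and CYP701A8 at 6.59 in M202(Sub1) and 8.37 in M202. The annotation places the gene with the CYP76M7 symbol on chromosome 6, outside the runs described below, so its identity is uncertain. CYP99A2 (-1.54) and the momilactone A synthase gene MAS (-1.03) were also 2-fold lower, and CYP99A3 (-0.59), CYP76M8 (-0.31) and CYP76M6 (-0.24) were less than 2-fold apart. On the 1-day arrays this list leaned the other way: 11 members had a difference above 0, and the median was 0.46. Of the 12 members, 3 were 2-fold higher at that time, against 0.778% of all genes. The 1-day share of all genes above 0 is not given here. Many of those 1-day values are near background: CPS2 was then at 5.48 in M202(Sub1) and 3.48 in M202.

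Many of the phytoalexin genes stand in known clusters, and the order along the chromosomes shows which neighbours were apart. On chromosome 2 the measured genes run CYP76M8, LOC4329723, KSL7, CYP71Z7, CPS2 and CYP76M6. The 4 inner genes were 2-fold lower, with LOC4329723 at -1.94, and the outer 2 were not. On chromosome 4 the run is CPS4, CYP99A3, MAS, KSL4 and CYP99A2, of which the last 3 were 2-fold lower. No other measured gene lies between them in either run.

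Defence proteins were lower too, with 20 of 21 below 0, against 49.6% of all genes, and a median of -0.78. Of the 21, 8 were 2-fold lower, against 2.18% of all genes. PBZ1, a pathogenesis-related protein gene used as a marker of rice immunity, stood at 10.37 in M202(Sub1) and 12.31 in M202 at 6 days, and in the other order at 1 day, at 11.51 in M202(Sub1) and 9.26 in M202. Germin-like proteins, cell wall proteins that include makers of hydrogen peroxide, were lower as neighbours on chromosome 8. GER2 was at 8.59 in M202(Sub1) and 11.86 in M202, the lowest difference (-3.27) among the 2201 measured genes with an informative symbol, and GER3 at 4.72 in M202(Sub1) and 7.05 in M202. GER6 (-1.04) was also lower, while GER1 (-0.72), which lies between GER2 and GER6, and GLP2 (-0.08), which follows GER6, were less than 2-fold apart. Chitinases, which cut fungal cell walls, were lower, with differences between -1.64 and -1.06, for Cht1, Cht2, Cht3 and Cht10. Cht1 and Cht3 are neighbours on chromosome 6, at 7.92 and 5.96 in M202(Sub1) and 9.56 and 7.38 in M202. Of 6 WRKY factors, which steer defence and senescence, WRKY24 alone was 2-fold apart, at 11.64 in M202(Sub1) and 10.64 in M202.

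**Figure D4:**
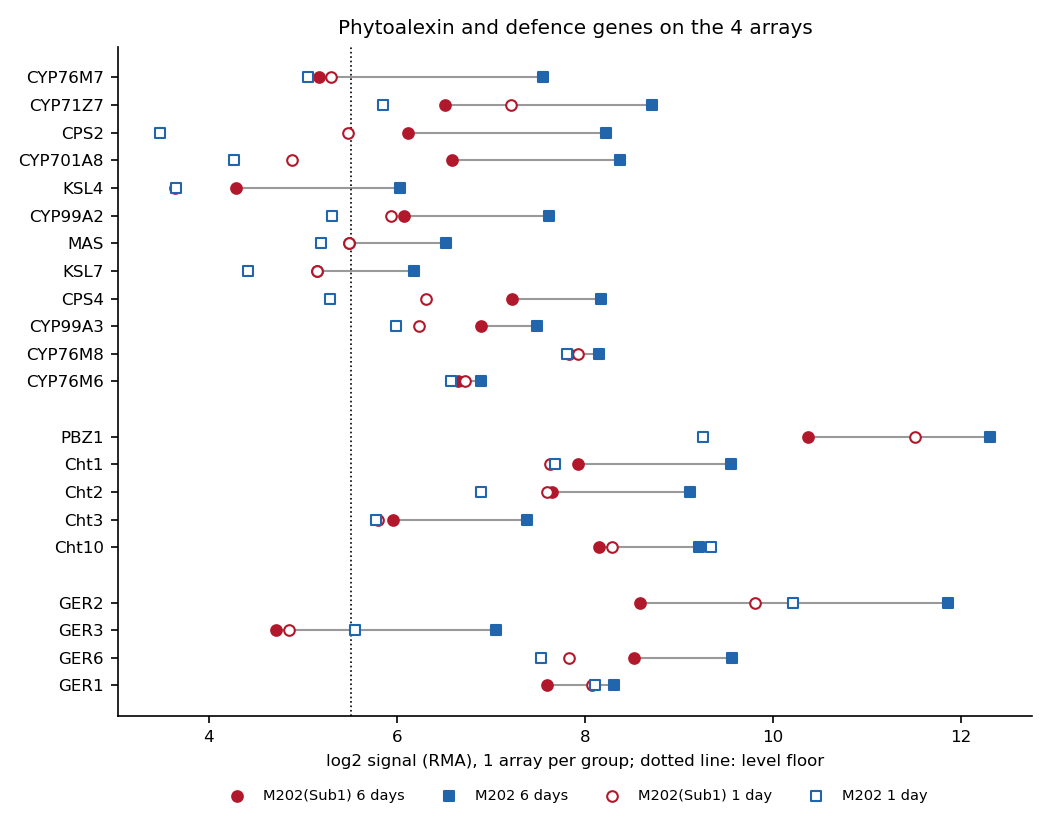
Log2 signal (horizontal axis) of the 12 phytoalexin genes and 9 defence genes (rows) on the 4 arrays, with filled symbols at 6 days, open symbols at 1 day, circles for M202(Sub1), squares for M202, and the floor dotted. In every row the filled circle of M202(Sub1) lies left of the filled square of M202. The open symbols stand in the reverse order in every phytoalexin row but KSL4 and for PBZ1, Cht2, Cht3 and GER6. They are then at least 2-fold apart only for CPS2, CYP71Z7, CPS4 and PBZ1.

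Chlorophyll breakdown genes, which take the pigment apart in senescence, were lower without reaching 2-fold. SGR, the stay-green gene, was at 11.85 in M202(Sub1) and 12.75 in M202, NYC1 at 10.91 in M202(Sub1) and 11.71 in M202, NOL at 9.88 in M202(Sub1) and 10.63 in M202, and RCCR1 at 11.85 in M202(Sub1) and 12.42 in M202. The 4 differences lay in a narrow range, between -0.90 and -0.57, and at 1 day between -1.55 and -0.58. Chlorophyll synthesis genes (8, median 0.12) and photosynthesis genes (10, median -0.04) had no member 2-fold apart.

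Nutrient genes included members that were lower in M202(Sub1). Of 13 nitrogen genes, 11 lay below 0 and 2 were 2-fold lower, against 49.6% and 2.18% of all genes. AMT3-2, an ammonium transporter, was at 8.43 in M202(Sub1) and 10.11 in M202. GLN1-2, a cytosolic glutamine synthetase, was at 10.63 in M202(Sub1) and 11.77 in M202. Of 37 metal homeostasis genes, 27 lay below 0 and 2 were 2-fold lower, against the same 49.6% and 2.18%. NAS1, which makes the metal carrier nicotianamine, was under the floor at 3.36 in M202(Sub1) and at 5.99 in M202, and in the other order at 1 day, at 7.06 in M202(Sub1) and 5.51 in M202. The zinc transporter gene ZIP1 (-1.04) and the sugar exporter gene SWEET14 (-1.12) were lower, and MT1B, a metallothionein, was at 8.93 in M202(Sub1) and 11.13 in M202. In the phosphate list, 2 of 17 genes were 2-fold higher, against 3.85% of all genes, both under the floor in M202. PHT3, named for phosphate transport, was at 7.14 in M202(Sub1) and 4.19 in M202, and SPX5 differed by 1.13. Further lower genes were the ABC transporter ABCG48, at 8.02 in M202(Sub1) and 10.43 in M202, and the DEAD-box RNA helicase RH2, at 6.70 in M202(Sub1) and 9.55 in M202.

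**Figure D5:**
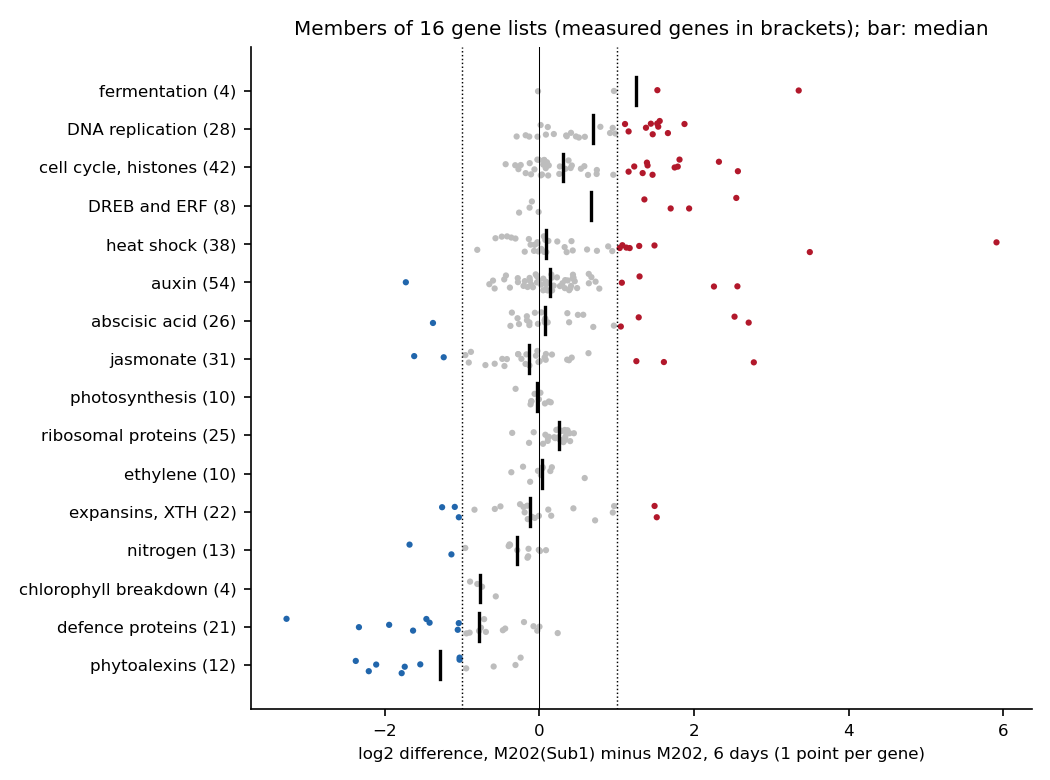
Log2 difference between the M202(Sub1) and M202 6-day arrays (horizontal axis) for each measured member of 16 gene lists (rows, number of genes in brackets), with red points 2-fold higher, blue points 2-fold lower, grey points between, and a bar at the list's median. DNA replication (median 0.69) and fermentation (1.24) lie right of 0, defence proteins (-0.78) and phytoalexins (-1.29) lie left of it, and ethylene and photosynthesis lie close to it.

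Most genes apart at 6 days were not apart at 1 day, a comparison of 2 other arrays. At 1 day 0.778% of the genes were 2-fold higher and 1.01% 2-fold lower. Of the 594 genes higher at 6 days, 67 (11.3%) were also 2-fold higher at 1 day and 429 (72.2%) lay within 0.5 of 0. Of the 336 lower genes, 49 (14.6%) were also 2-fold lower at 1 day and 173 (51.5%) lay within 0.5 of 0, against 90.5% of all genes. The median 1-day difference was 0.12 for the higher and -0.43 for the lower genes. A 2-fold difference the other way at 1 day was found for 13 of the higher and 8 of the lower genes.

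Among genes that the annotation used here names only by number, 5 in each direction had the largest differences. LOC4344943 on chromosome 8 was at 10.35 in M202(Sub1) and 3.37 in M202 at 6 days, and at 12.20 in M202(Sub1) and 3.76 in M202 at 1 day. Its 2 probe sets gave differences of 6.98 and 2.72. LOC4344266 (4.81), LOC4341874 (4.60), LOC4329812 (4.56) and LOC4334567 (4.18) followed. For LOC4329812 the 1-day signal was low in both genotypes, at 5.83 in M202(Sub1) and 4.74 in M202, against 12.88 in M202(Sub1) and 8.32 in M202 at 6 days. On the lower side, LOC4340120 (-6.55), LOC4339940 (-5.52) and LOC4339944 (-4.51) lie on chromosome 6, and at 1 day they differed by -6.64, -5.97 and -6.77. LOC4325422 was at 5.77 in M202(Sub1) and 9.54 in M202 at 6 days, but at 6.59 in M202(Sub1) and 5.66 in M202 at 1 day. LOC4332796 stood at 6.75 in M202(Sub1) and 10.36 in M202. Chromosome 6 holds 5 of the 9 genes at least 8-fold lower, and 1202 of the 15426 measured genes. M202(Sub1) carries a stretch of a donor genome at Sub1 on chromosome 9. None of the 5 lower genes named above lies on chromosome 9, and donor genome on other chromosomes was not looked for. Whether any of them lies in donor genome was not tested. For a gene that does, a poor match between a transcript and its probes cannot be told apart from a lower level.

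Along the chromosomes, the share of genes 2-fold apart ran from 4.65% on chromosome 2 to 8.28% on chromosome 12. Chromosomes 6, 11 and 12 had more lower than higher genes, with 41 lower and 40 higher, 25 lower and 22 higher, and 37 lower and 26 higher. On the other 9 chromosomes higher genes were in the majority. Chromosome 9, which carries Sub1, had 32 higher and 14 lower genes of 831. In runs of 50 neighbouring measured genes, the highest count of higher genes was 9, reached on chromosome 4 in a run that opens with DREB1E and on chromosome 5 in a run that holds KIN10C, PDC1 and MCM3. The highest count of lower genes was 8, on chromosome 6.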

How the data were processed

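Shoot RNA was extracted with Trizol and hybridised to 1-colour Affymetrix arrays after labelling with biotin, per the labels' protocols. The authors deposited 1 log2 value per probe set and array, made with RMA per the submitters' processing notes. RMA gives arrays a common distribution, so an overall shift in RNA amount is hidden. The version is not given in the sources used here. Of 57381 probe sets, 123 are controls, and of the other 57258, 22436 carry 1 gene symbol in the platform annotation, 95 several and 34727 none. These stand for 17905 genes, each found by its gene number in RefSeq (assembly ASM3414082v1), which served for names and gene order only. No genome or promoter sequence was used here.

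Each gene was represented by its probe set with the highest mean, a gene needed a value at or above the 50th percentile (5.51) on some array, and the difference M202(Sub1) minus M202 was counted at an absolute log2 value of 1 or more. With 1 array per group, which limits the precision, no test was made and no p-value is given. The named genes are the 20 largest differences in each direction among genes with an informative symbol whose probe sets above the floor shared a sign, up to 4 members of each gene list in each direction if 2-fold apart, the 5 largest in each direction among genes without such a symbol, the 2 nearest on each side of the 2-fold line, and all members of the fermentation, hemoglobin, chlorophyll breakdown and phytoalexin lists. Further members of lists, families, neighbour runs and markers are given, chosen after their values were seen. The 42 lists are symbol patterns, so members filed under other symbols are missing. The members and lists were chosen with earlier results of these data known. The calculations ran in Python 3.11.15 with numpy 2.4.6, pandas 2.3.3, scipy 1.17.1, statsmodels 0.14.6 and matplotlib 3.10.9 and were tested on simulated data. Alternatives were other floors or none, the mean of probe sets, use of only those probe sets without a suffix for possible cross-hybridisation, centring, quantile normalization, removal of a lowess curve and a 4-fold threshold.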

Additional observations from a re-analysis of the deposited data

Results flagged for a closer look

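Among the genes named in the text, 8 were 2-fold apart in opposite directions at 6 days and at 1 day. With 1 array per group the difference between the times was not tested. Higher in M202(Sub1) at 6 days and lower at 1 day were the meristem homeobox genes OSH1 (1.88 and -2.35) and HOS9 (1.81 and -1.16), the cold regulator DREB1B (1.70 and -1.19) and the leaf-polarity factor YAB5 (1.49 and -1.10). Lower at 6 days and higher at 1 day were the nicotianamine synthase gene NAS1 (-2.63 and 1.55), the phytoalexin genes CYP71Z7 (-2.21 and 1.37) and CPS2 (-2.11 at 6 days, and at 1 day 5.48 in M202(Sub1) and 3.48 in M202), and the pathogenesis-related gene PBZ1 (-1.94 and 2.25). OSH1, YAB5, NAS1 and CPS2 lay under the floor on some arrays and HOS9 on all 4.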

How the results depend on the processing

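No paired analysis was possible because each group had 1 array, and for the same reason no replicate could be left out. The count of genes 2-fold higher came to 344 and the count of lower genes to 217 with the floor at the 75th percentile of all values, and to 84 and 48 at a threshold of 4-fold. The other 8 settings (floor at the 25th percentile, no floor, floor on the lower 6-day array, mean of all probe sets, no shared probe sets, centring, quantile normalization and removal of a lowess curve) kept both counts within 1.5 times. Over the medians of the 41 lists run again, 10 of 328 values moved by more than the standard deviation between probe sets of a gene (0.263). With the floor at the 75th percentile the medians were 1.52 for fermentation, -2.11 for phytoalexins, 1.53 for DREB and ERF factors and 0.85 for trehalose. Without a floor they were -0.99 for phytoalexins and -0.055 for DREB and ERF factors, and with the mean of all probe sets the last was 1.36. Without shared probe sets they were 1.52 for fermentation, -1.64 for phytoalexins and -0.29 for ABC transporters. Floors and the choice of probe sets alter which genes or sets are measured, and other causes were not tested. Of 116 named genes none reversed, 8 of the 101 that were 2-fold apart came under 2-fold in some setting (ABIL1, PSS1, WRKY24, GAPC3, JAZ10, EXPA7, OPR5 and HSFB4B), and 13 of 878 values moved. A signal near background limits the size of differences of genes under the floor. The planned search for promoter motifs was not run.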

Other observations

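Several gene families were counted after their values had been seen, so their shares are descriptions. Of all measured genes, 50.3% lay above 0, 3.85% were 2-fold higher and 2.18% 2-fold lower at 6 days. All 9 measured growth-regulating factors, which act on leaf cell division, lay above 0, and 5 were 2-fold higher in M202(Sub1) at 6 days: GRF6 (2.23), GRF1 (2.21), GRF10 (1.67), GRF4 (1.23), and OsGRF3 at 8.69 in M202(Sub1) and 7.18 in M202. The family's median difference was 1.23 at 6 days and 0.05 at 1 day. All 7 TCP factors, growth regulators named PCF, lay above 0 (median 0.63), with PCF5 at 9.48 in M202(Sub1) and 7.45 in M202. Of 33 kinesins, motors that include those of the dividing cell, 26 lay above 0 and 4 were 2-fold higher, among them KIN10C (2.43), KIN14C (1.37), KIN7J (1.35) and KIN5C (1.05). The leaf-polarity factors YAB5 (1.49) and YAB4 (1.41) were 2-fold higher, while the other 3 YABBY genes measured were not 2-fold apart.

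Of 21 CASP-like membrane protein genes, a family counted in the same way, 17 lay below 0 and 3 were 2-fold lower: OsCASPL1U3 (-2.04), OsCASPL1B1 (-1.43) and OsCASPL1D1 (-1.09). Among 16 small heat shock proteins 13 lay above 0 (median 0.52). The 18 genes counted as heat shock factors had a median of -0.05. They include a gene with the symbol ARD1 (0.05), whose place in that family was not checked. Of 7 phosphatases of the clade that blocks the abscisic acid signal, 6 lay above 0 (median 0.96), against a median of -0.01 at 1 day. Probe sets with no gene or with several genes were outside the comparison: of 12243 above the floor, 2.11% were 2-fold higher and 1.21% 2-fold lower in M202(Sub1).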
